A study of Caenorhabditis elegans with 8 samples.

Results

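Cuticle collagens are the structural proteins of the nematode exoskeleton. Each is a small protein built around repeats of glycine and 2 other residues, is secreted by the epidermis, and assembles with other collagens into the layered cuticle that is shed and rebuilt at every molt. Collagen genes are switched on in waves during each larval molt, and some serve only the dauer larva or the adult. The *C. elegans* genome holds a large family of them named *col-*, beside a smaller set known from mutants with altered body shape (*dpy*, *sqt*, *rol*, *bli*). The members described here are all genes measured by a probe whose gene symbol, or the symbol of its sequence name, begins with *col-*. There were 150 such genes, measured by 156 probes, among 18877 genes in all.

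Expression was measured in whole animals on 8 arrays carrying a pair of dyes. On each array, RNA of an *age-1* mutant strain carried Cy3 and RNA of N2, the wildtype (*age-1(+)*), carried Cy5. *age-1* encodes the catalytic subunit of the PI3-kinase of the insulin/IGF-I-like pathway. All animals had grown for 72 h at 20°C after release from L1 arrest and were collected around the last molt, as L4 larvae or young adults. The *age-1(mg44)* strain (2 arrays) was *sqt-1(sc13) age-1(mg44)/mnC1*, from which homozygous null adults were taken whose mothers carried a functional *age-1* copy. CY262 (3 arrays) was *sqt-1(sc13) age-1(mg44)* with the integrated transgene *bvIs1*, which restricts *age-1* activity to the intestine. CY251 (3 arrays) had the same mutations and the transgene *bvIs2*, which restricts *age-1* activity to neurons. CY262 and CY251 are called the restored strains below. All 3 strains carried allele *sc13* of *sqt-1*, itself a cuticle collagen gene, and N2 did not. Per the methods, N2 controls could be slightly later in development than the strains. A difference from wildtype therefore cannot be told apart between *age-1*, *sqt-1(sc13)* and developmental stage.

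A log2 ratio above 0 means a higher level in the strain than in wildtype, and 1 unit is a 2-fold difference. Adjusted p values are limma's, with Benjamini-Hochberg adjustment over all genes of a comparison, and a gene that passed 0.05 is said to have risen or fallen. The dyes were not swapped, so a probe that responds unequally to them shifts every comparison with wildtype the same way. In whole-animal RNA, fewer cells of a type and less RNA per cell cannot be told apart. The article gives 3 replicates for N2, and the wildtype RNAs of different arrays may be shared. Of the 150 collagens, 127 were well above background in both channels on all 8 arrays and 1 in neither channel on any array. The probes of 14 collagens also list another gene, so that *col-13*, for example, could not be measured apart from *col-12*. Signals of 13 collagens reached the scanner's ceiling in both channels on at least 1 array, and those of 18 others did so in the strain channel only. A ratio of signals that are both at the ceiling does not measure the level, and after normalization it need not be 0.

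The records disagree on the strain of 4 arrays. By file name, the array recorded as CY262 replicate 2 is of CY251 and the one recorded as CY251 replicate 2 is of CY262. In the value table deposited for the series, 4 columns equal the ratios of an array recorded as another sample. The values below use the arrays as recorded, and the assignment changes which of the restored strains a value belongs to but not the mean of their 6 arrays.

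Most of the *col-* collagens were at a higher level in each strain than in wildtype. The median log2 ratio of the 150 genes was 1.14 in *age-1(mg44)*, against -0.01 over all genes in the same comparison. In *age-1(mg44)* 66 collagens rose and 1 fell, where 11.6% of all genes rose and 7.96% fell. The level was at least 2-fold higher for 82 collagens, compared with 10% of all genes. The median was 1.66 in CY262, where 100 collagens rose and 2 fell, against 18.1% and 14.3% of all genes. In CY251 the median was 1.57, with 99 collagens that rose and 0 that fell, against 18.3% and 12.7% of all genes. At an unadjusted limma p under 0.05, 1 collagen was lower in CY251. Log2 ratios were above 0 on all 8 arrays for 111 of 147 collagens measured on every array (75.5%), compared with 22.7% of all genes. They were below 0 on all 8 arrays for 2 collagens, *col-135* and *col-40* (1.36%), compared with 20.9% of all genes.

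Of the counts above, 7 in each strain are collagens at the ceiling in both channels on at least 5 arrays (*col-36*, *col-106*, *col-122*, *col-140*, *col-143*, *col-154* and *col-178*). On an array where both channels were at the ceiling they had nearly the same ratio as each other, for example 0.91 for *col-36* on *age-1(mg44)* replicate 1 and 0.38 on CY262 replicate 2. Their rise passed the threshold, but neither channel was measured there, so no level can be read from it. Leaving out the 13 collagens with both channels at the ceiling left 55 that rose and 1 that fell in *age-1(mg44)*, 87 and 2 in CY262, and 87 and 0 in CY251, with medians of 1.33, 1.80 and 1.81. The count in *age-1(mg44)* rested on both of its arrays: 25 collagens passed the threshold without replicate 1 and 18 without replicate 2, of 940 and 278 genes in all, where 1 array is left and is assumed to vary like the others. Without CY251 replicate 2 the median in CY251 was 1.02, with 67 collagens that rose.

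**Figure D1:**
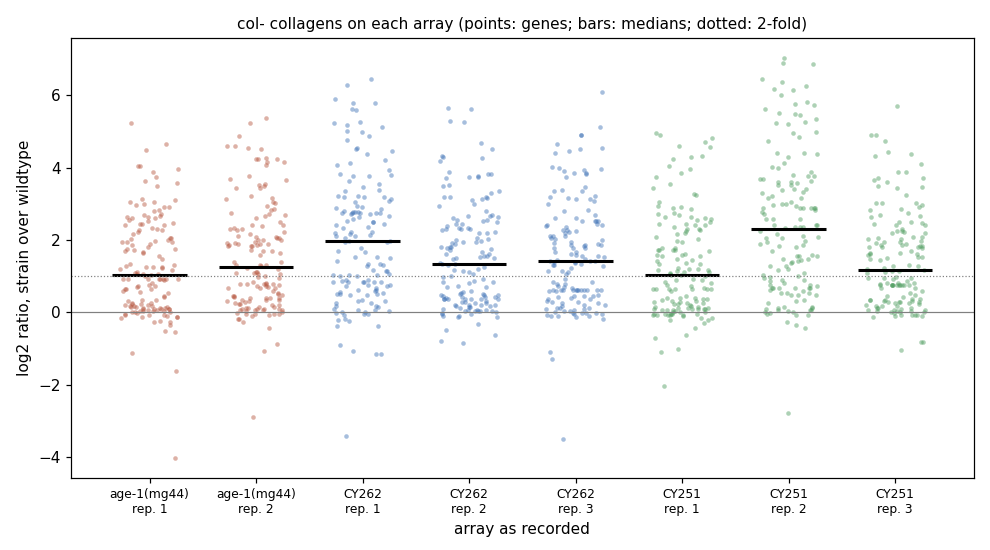
Log2 ratio of strain to wildtype (y axis) of each *col-* collagen on each of the 8 arrays (x axis), with the median marked. Medians lie between 1.03 and 2.30, and the 2 highest belong to CY262 replicate 1 and CY251 replicate 2.

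Taken array by array, the collagens were higher than in wildtype everywhere. The median collagen had a log2 ratio of 1.03 and 1.26 on the *age-1(mg44)* arrays, of 1.98, 1.35 and 1.42 on the CY262 arrays, and of 1.04, 2.30 and 1.18 on the CY251 arrays. CY262 replicate 1 and CY251 replicate 2 stood above the other 6, which lay close together whatever their strain. The count of collagens at least 2-fold higher was 75 to 88 on those 6 arrays, 97 on CY262 replicate 1 and 105 on CY251 replicate 2. Over all genes these shares were 8.95% to 11.8%, 9.9% and 13.4%.

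The 150 genes did not move as a block. Ward clustering put the 147 collagens measured on all arrays into 5 groups, on the same log2 ratios and so as a description only. It separated them mainly by the size of the difference from wildtype. The first group of 11 (*col-9*, *col-81*, *col-85*, *col-93*, *col-94*, *col-112*, *col-129*, *col-139*, *col-159*, *col-162* and *col-175*) had array medians of 3.97 and 4.51 in *age-1(mg44)*, 5.27, 4.52 and 4.53 in CY262, and 4.58, 6.16 and 4.39 in CY251, and all 11 rose in every strain. A second group of 16, among them *col-13*, *col-133*, *col-146*, *col-149* and *col-150*, was uneven: its array medians were 1.79 and 3.19 in *age-1(mg44)*, 4.33, 3.12 and 3.29 in CY262, and 1.49, 5.36 and 2.88 in CY251. In it 2 genes passed the threshold in *age-1(mg44)*, and all 16 did in each restored strain. The third group of 25, which holds *col-19*, *col-38*, *col-68*, *col-77*, *col-98* and *col-179*, had array medians from 2.12 to 3.16, and all 25 rose in every strain. The strain signal of 10 of these 25 was at the ceiling on at least 1 array, and the other 15 had array medians from 2.01 to 3.40. The next group, of 34, had array medians from 1.06 to 2.41, and 14, 26 and 23 of its genes rose in *age-1(mg44)*, CY262 and CY251. The remaining 61 collagens had array medians from 0.11 to 0.67, and 13, 20 and 22 of them rose. Means of single genes in this group ran from -2.52 to 1.76, and some genes, such as *col-59* and *col-135*, varied widely between arrays. This group includes 11 of the 13 genes with both channels at the ceiling, whose ratios cannot show a large difference. All 11 are counted as risen in CY262 and CY251, and all but *col-63* in *age-1(mg44)*. The counts of rises in this group therefore rest largely on genes whose level cannot be read.

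**Figure D2:**
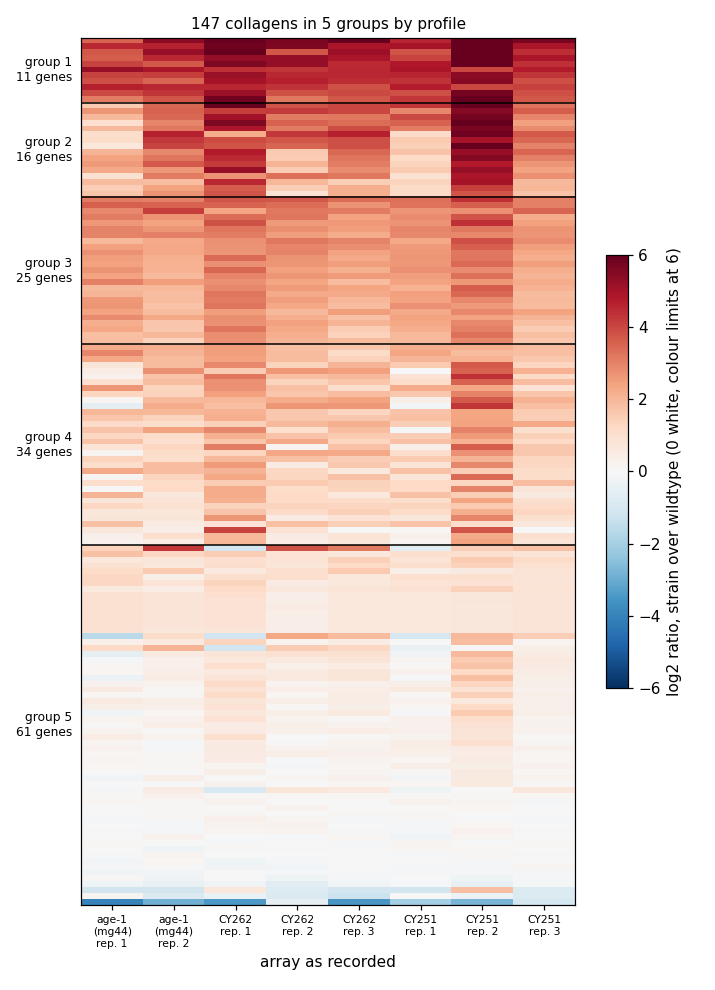
Heat map of the log2 ratio of strain to wildtype (colour) of the 147 *col-* collagens measured on all arrays (rows, ordered by Ward group) on the 8 arrays (columns). Group 1 is high on every array, group 2 is low on *age-1(mg44)* replicate 1 and CY251 replicate 1, and most of group 5 is near 0.

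**Figure D3:**
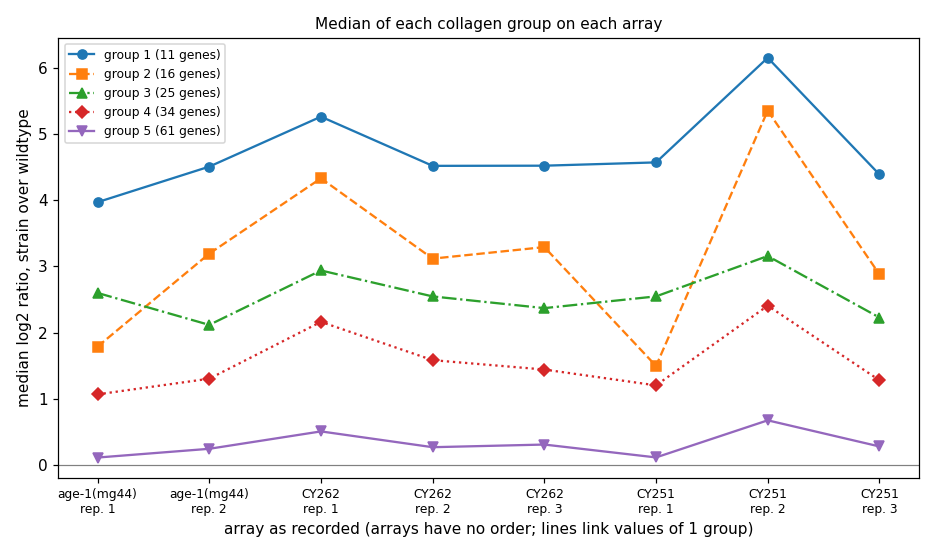
Median log2 ratio of strain to wildtype (y axis) of each of the 5 Ward groups of *col-* collagens on the 8 arrays (x axis). CY262 replicate 1 and CY251 replicate 2 are the highest restored arrays in every group, and the spread between arrays is widest in group 2, from 1.49 to 5.36.

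The 8 collagens with the largest rise in *age-1(mg44)* all belong to the first group. *col-94* had log2 ratios of 5.24 and 4.89 in *age-1(mg44)*, 4.37, 4.30 and 4.54 in CY262, and 4.91, 4.0 and 4.75 in CY251. Every array was far above wildtype, and the level in *age-1(mg44)* was 33.4-fold that of wildtype (log2 5.06, SE 0.214, limma adjusted p = 0.000127). Strain signals in CY262 and CY251 were at the ceiling, so the spread between restored arrays cannot be read. With the scaling used here, the rises there are at least 21.1-fold and 23.5-fold. The lowest log2 values under 20 alternatives were 3.95 in CY262 and 4.07 in CY251. The *col-94* probe also lists *col-92*.

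*col-129* was at 4.66 and 4.54 in *age-1(mg44)*, 4.54, 4.32 and 3.82 in CY262, and 4.72, 4.01 and 4.11 in CY251. It rose 24.3-fold in *age-1(mg44)* (log2 4.60, SE 0.217, limma adjusted p = 0.000198). In CY262 and CY251 the strain signal was at the ceiling, and with the scaling used here the rises were at least 18.7-fold and 19.4-fold. The lowest log2 values there under 20 alternatives were 3.81 and 3.83.

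*col-85* gave 4.50 and 4.61 in *age-1(mg44)*, 5.80, 5.61 and 4.91 in CY262, and 4.97, 6.17 and 4.91 in CY251. Every restored array lay above both *age-1(mg44)* arrays. The folds over wildtype were 23.5, 43.4 and 40.8 in *age-1(mg44)*, CY262 and CY251 (limma adjusted p = 0.000935, 0.000139 and 0.000147).

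For *col-81* the ratios were 3.51 and 5.38 in *age-1(mg44)*, 5.91, 5.65 and 6.09 in CY262, and 4.59, 7.04 and 5.72 in CY251. The strains overlapped, since *age-1(mg44)* replicate 2 was above CY251 replicate 1. It rose 59-fold in CY262 and 55.1-fold in CY251, with no signal at the ceiling, and 21.7-fold in *age-1(mg44)* (limma adjusted p = 0.000847, 0.00065 and 0.00662).

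*col-162* spread more, with 3.75 and 5.23 in *age-1(mg44)*, 6.46, 3.72 and 5.12 in CY262, and 3.75, 6.89 and 4.44 in CY251. Its rise in *age-1(mg44)* had an SE of 0.886 on a log2 value of 4.49 (limma adjusted p = 0.0186), and its probe also lists *col-161*. *col-175* (log2 4.13, SE 0.512), *col-139* (4.10, SE 0.262) and *col-112* (4.07, SE 0.46) completed the 8, with limma adjusted p of 0.00522, 0.000532 and 0.00403. *col-112* is named *bli-6* in the reference annotation, after the blistered cuticle of its mutants.

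**Figure D4:**
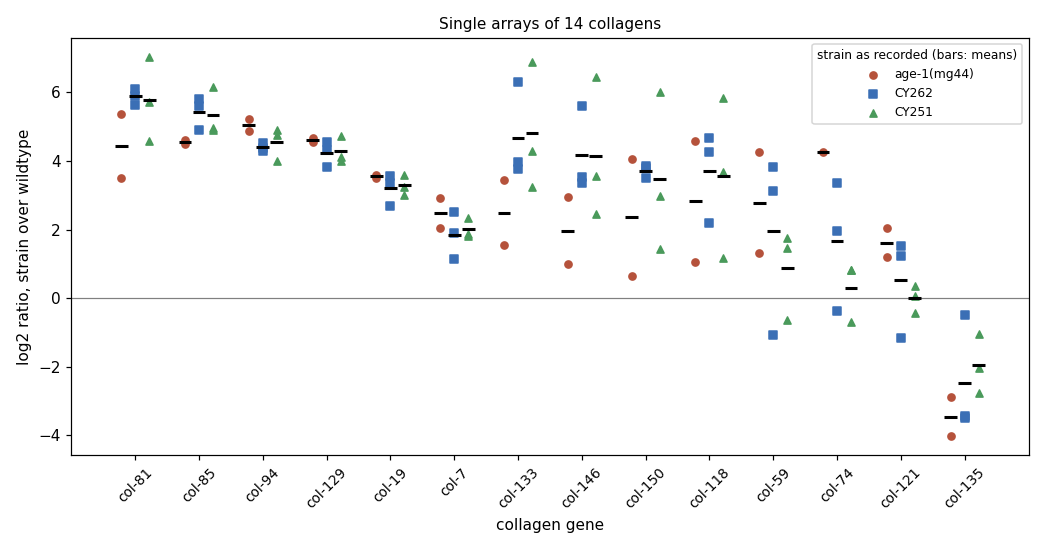
Log2 ratio of strain to wildtype (y axis) of 14 named *col-* collagens, with points for single arrays and bars for the mean of each strain. *col-94* and *col-129* are high on every array, with the strain signal at the ceiling on all 6 restored arrays, *col-133*, *col-146* and *col-150* spread widely, and *col-135* is below 0 on every array.

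Some of the collagens have a known time of use. *col-19* and *col-7* are adult cuticle collagens. *col-19* stood at 3.58 and 3.52 in *age-1(mg44)*, 3.56, 3.36 and 2.70 in CY262, and 3.26, 3.60 and 3.01 in CY251. It was far above wildtype on every array, and it rose 11.7-fold in *age-1(mg44)* (log2 3.55, SE 0.217, limma adjusted p = 0.000481). With the scaling used here, the rise in CY262 was at least 9.21-fold, and the strain signal was at the ceiling. *col-7* had ratios of 2.91 and 2.05 in *age-1(mg44)*, 2.50, 1.91 and 1.13 in CY262, and 2.35, 1.88 and 1.81 in CY251. It rose in *age-1(mg44)* as well (log2 2.48, SE 0.341, limma adjusted p = 0.00662). With the same scaling it rose by at least 3.59-fold in CY262 and 4.02-fold in CY251, where the strain signal was at the ceiling. Its probe also lists *col-62*.

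*col-2*, a collagen of the dauer larva, was at 1.22 and 1.09 in *age-1(mg44)*, 2.12, 1.73 and 1.56 in CY262, and 1.47, 2.57 and 1.45 in CY251. All restored arrays lay above both *age-1(mg44)* arrays. It rose in every strain, by log2 values of 1.16, 1.80 and 1.83 in *age-1(mg44)*, CY262 and CY251 (limma adjusted p = 0.0336, 0.00287 and 0.00204). Its call in *age-1(mg44)* was lost under 6 of 20 alternatives. The adult collagen *col-19* was thus further above wildtype than the dauer collagen *col-2* on every array, although ratios of different probes say nothing of which transcript was more abundant.

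*col-10*, *col-13* and *col-120* are known for lengthening lifespan when overexpressed. *col-13* gave 1.93 and 3.16 in *age-1(mg44)*, 4.87, 3.10 and 3.92 in CY262, and 3.06, 5.63 and 2.85 in CY251, so that the strains overlapped. It rose in CY262 (log2 3.97) and CY251 (3.84), with limma adjusted p of 0.00503 and 0.00446, and its log2 value in *age-1(mg44)* was 2.54 (adjusted p = 0.056). *col-120* did not pass in any strain, at 1.45, 1.55 and 1.62 in *age-1(mg44)*, CY262 and CY251 (limma adjusted p = 0.151, 0.0569 and 0.0515). *col-10* was close to wildtype, at 0.13, 0.40 and 0.44, and passed in CY262 and CY251 (limma adjusted p = 0.03 and 0.0232), but all 3 values fell below 0 when arrays were centred on their median in place of loess. *col-144* behaved alike, at 0.25, 0.61 and 0.64, with limma adjusted p of 0.0355 in CY262 and 0.0312 in CY251, but each of these calls was lost under 9 of 20 alternatives, and the values were below 0 under both other scalings tried. *col-17* had log2 values of 0.36, 1.04 and 1.11 and did not pass. *col-99*, a transmembrane collagen, was not well above background in either channel in *age-1(mg44)* and CY251, and has no fold there. In CY262 its strain signal was well above background on 1 array and its wildtype signal on none. Its ratios there were -0.01, 0.28 and -0.02 (limma adjusted p = 0.415), and no fold is read from them.

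*col-135* was the collagen furthest below wildtype. Its ratios were -4.02 and -2.90 in *age-1(mg44)*, -3.42, -0.49 and -3.50 in CY262, and -2.04, -2.78 and -1.04 in CY251. Every array was below 0, but the size of the difference varied widely, with CY262 replicate 2 and CY251 replicate 3 nearest to wildtype. The strain mean was 0.091 of the wildtype level in *age-1(mg44)* (log2 -3.46, SE 0.783, limma adjusted p = 0.0279). It was 0.18 in CY262 (log2 -2.47, SE 0.639, limma adjusted p = 0.0282) and 0.259 in CY251 (log2 -1.95, limma adjusted p = 0.0603). Of 20 alternatives, 3 lost the call in *age-1(mg44)* and 4 lost it in CY262, while 5 gained one in CY251. *col-158* was the other collagen that fell, in CY262 (log2 -0.85, limma adjusted p = 0.0486). This call was lost under 11 of 20 alternatives and the value turned above 0 under 1. Its ratios were 0.16 and -0.88 in *age-1(mg44)*, -0.39, -0.85 and -1.30 in CY262, and 0.00, -0.36 and -0.83 in CY251, so that its strains overlapped. The difference between CY262 and CY251 for it did not pass (log2 -0.45, adjusted p = 1).

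The study set the restored strains against *age-1(mg44)* to ask which genes respond to *age-1* activity in another tissue. None of the 150 collagens passed the threshold in this comparison by limma, where 0.0265% of all genes did. At an unadjusted limma p under 0.05, 4 collagens were higher, beside 1536 of 18862 genes in either direction. None passed for CY262 alone (0 collagens, 0.0265% of all genes) or for CY251 alone (0 collagens, 0.0053% of all genes). Unadjusted, 1 collagen passed for CY262 and 6 for CY251, beside 1276 of 18865 and 1281 of 18862 genes. The *age-1(mg44)* arrays are shared by these comparisons. The median difference of the restored strains from *age-1(mg44)* was 0.29 on the log2 scale, against 0.015 over all genes. It was above 0 for 111 of 150 collagens, compared with 53.7% of all genes. In 19 of 147 collagens all 6 restored arrays lay above both *age-1(mg44)* arrays (12.9%), compared with 5.59% of all genes. In 0 of 147 they all lay below, compared with 5.61% of all genes. Without CY262 replicate 1 and CY251 replicate 2, a choice made after the data were seen, the median difference was 0.07, with 88 of 150 above 0. The all-gene median was then 0.016, with 53.6% of all genes above 0.

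*col-133* and *col-146* had the largest positive difference. *col-133* was at 1.55 and 3.44 in *age-1(mg44)*, 6.30, 3.77 and 3.98 in CY262, and 4.29, 6.88 and 3.25 in CY251. Only CY251 replicate 3 fell between the *age-1(mg44)* arrays, and the other 5 restored arrays were above them. The difference was 2.25 (SE 1.14) with a limma adjusted p of 0.675.

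*col-146*, whose probe also lists *col-147*, gave 1.0 and 2.95 in *age-1(mg44)*, 5.62, 3.53 and 3.37 in CY262, and 3.56, 6.46 and 2.46 in CY251. The pattern of high and low arrays was that of *col-133*. The difference was 2.19 (limma adjusted p = 0.688). The wildtype signal was well above background on neither *age-1(mg44)* array. The mean *age-1(mg44)* level, 3.93-fold that of wildtype, is therefore not an exact fold, and it did not pass (limma adjusted p = 0.222). *col-81* (1.39), *col-13* (1.36), *col-169* (1.33) and *col-149* (1.31) followed, none past the threshold. *col-169* was also the least steady of them, since its value turned to -0.05 without *age-1(mg44)* replicate 1.

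Differences in the other direction were led by 3 collagens that share an uneven pattern. *col-74* was missing on *age-1(mg44)* replicate 1 and stood at 4.25 on replicate 2, at -0.37, 1.96 and 3.37 in CY262, and at -0.70, 0.82 and 0.81 in CY251. The single *age-1(mg44)* value was the highest of the 7, and the difference of -3.27 (SE 1.35, unadjusted p = 0.0546, limma adjusted p = 0.624) rests on it. *col-59* gave 1.32 and 4.25 in *age-1(mg44)*, -1.08, 3.84 and 3.13 in CY262, and -0.62, 1.47 and 1.77 in CY251. Arrays of all strains overlapped, and its difference of -1.37 (limma adjusted p = 0.855) turned to 0.10 without *age-1(mg44)* replicate 2.

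*col-121* had 1.20 and 2.05 in *age-1(mg44)*, -1.16, 1.51 and 1.24 in CY262, and -0.42, 0.06 and 0.36 in CY251, with a difference of -1.36 (SE 0.714, limma adjusted p = 0.687). For all 3 of these genes the first replicate of CY262 and of CY251 was below 0. *col-80* (-0.69), *col-142* (-0.62) and *col-94* (-0.58) came next, and for these 3 the strain signal of restored arrays was at the ceiling, so that a difference of this direction cannot be read from them.

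The 6 restored arrays split in a way that did not follow the recorded strains. CY262 replicate 1 and CY251 replicate 2 were the 2 highest of all 8 arrays for 74 of 147 collagens (50.3%), compared with 4.67% of all genes. Over 148 collagens, the mean of these 2 arrays was above the mean of the other 4 restored arrays by a median of 0.57 on the log2 scale, against -0.01 over all genes. At least a 2-fold gap upward was seen in 44 collagens, compared with 1.67% of all genes, and 4 were at least 2-fold lower. These arrays were singled out after their values were seen, so the gap is a description with no test. Under the file names, and under the value table, both arrays belong to CY262.

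*col-41* had the largest gap, and is named here for it. Its ratios were 0.66 and 0.40 in *age-1(mg44)*, 4.07, 0.84 and -0.04 in CY262, and 0.08, 3.79 and 0.00 in CY251. The 2 arrays stood apart from 6 that were near wildtype. Their mean was above that of the other 4 restored arrays by 3.71 on the log2 scale. The wildtype signal of *col-41* was well above background on neither *age-1(mg44)* array, so its ratios there are not exact. *col-130* (3.16), *col-90* (3.05), *col-146* (2.81), *col-133* (2.77) and *col-104* (2.74) had the next largest gaps. The 4 collagens that were lower on these arrays were *col-59* (-1.83), *col-135* (-1.33), *col-121* (-1.22) and *col-74* (-1.14).

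Cuticle collagens outside the *col-* family had the same outline. The median log2 ratio of 18 body-shape and other cuticle collagens was 3.04 on CY262 replicate 1 and 3.07 on CY251 replicate 2, and from 0.385 to 1.46 on the other 6 arrays. These 2 arrays were the highest for 11 of the 18, among them *dpy-8*, *dpy-13*, *lon-3*, *rol-6* and *rol-8*, and were not for 7, among them *dpy-10* and *dpy-17*. *sqt-1*, whose allele *sc13* all 3 strains carry, was at 0.88 and 0.60 in *age-1(mg44)*, 4.40, 0.66 and 1.40 in CY262, and 0.32, 4.92 and 2.11 in CY251, and it did not pass in any strain (limma adjusted p = 0.699, 0.132 and 0.103). Its 2 highest arrays were the same 2. The 26 major sperm proteins had medians of 6.26 and 6.71 on the 2 arrays, and from 5.72 to 6.63 on the other 6. Body wall muscle markers had a median of 2.62 on CY262 replicate 1, above the 1.28 to 2.36 of the other restored arrays, and of 1.74 on CY251 replicate 2, within it.

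Some collagens split the arrays along another line, with *age-1(mg44)* replicate 1 and CY251 replicate 1 low. *col-150* was at 0.65 and 4.06 in *age-1(mg44)*, 3.78, 3.50 and 3.85 in CY262, and 1.42, 6.01 and 2.97 in CY251. *col-118* was at 1.06 and 4.60 in *age-1(mg44)*, 2.20, 4.27 and 4.66 in CY262, and 1.16, 5.82 and 3.67 in CY251. In *col-118* CY262 replicate 1 was low as well, so that all arrays numbered 1 lay below all the others. These genes are named after their values were seen.

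CY262 and CY251 did not differ past the limma threshold for any collagen with the arrays as recorded (0 collagens, 0% of all genes). Unadjusted, 1 collagen had a p under 0.05, beside 150 of 18873 genes. The median difference of CY262 from CY251 was -0.02, against -0.01 over all genes. In CY262 61 of 150 collagens were higher, compared with 43.8% of all genes. The largest differences were those of *col-74* (1.35), *col-59* (1.09) and *col-65* (0.63) toward CY262 and of *col-9* (-0.54), *col-135* (-0.52) and *col-158* (-0.45) toward CY251, all with an adjusted p of 1. Under the file names the median difference was 0.39, with 130 of 150 collagens higher in CY262 and 37 at an unadjusted p under 0.05. The all-gene median was -0.02, with 42.7% higher and 1962 of 18877 genes at an unadjusted p under 0.05. Under the value table the median difference of collagens was 0.31, with 131 higher and 20 at an unadjusted p under 0.05. The all-gene median was 0.01, with 54.8% higher and 267 of 18873 genes at an unadjusted p under 0.05. Still 0 collagens passed the threshold under either. *col-9* shows the change: its ratios were 5.80, 3.18 and 3.75 in CY262 and 4.24, 6.38 and 3.72 in CY251 as recorded, and its difference of -0.54 became 1.60 under the file names and 1.58 under the value table.

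Collagen genes often lie side by side. In the reference annotation 18 pairs of measured *col-* genes were neighbours among protein-coding genes, and for 14 of them both or neither passed the threshold in *age-1(mg44)*. The log2 ratios of neighbours ran together (r above 0.8 over the 8 arrays) in 5 pairs, of which 3 involve a probe that also lists another gene. *col-9* and *col-44* were one pair (r = 0.936), but *col-9* was at 3.40 and *col-44* at 0.78 in *age-1(mg44)*. *col-144* and *col-145* were another (r = 0.892), both near wildtype at 0.25. *col-93* and *col-94* ran opposite to each other (r = -0.858), and *col-94* was limited by the ceiling on restored arrays. These are correlations over 8 arrays of 3 strains and are given as descriptions. No such counts were made for pairs that are not neighbours, and by correlation 101 of 147 collagens fell in 1 group. Neither count therefore shows that neighbours were more alike than other pairs of collagens.

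Where several probes measured 1 collagen, they did not disagree in sign in any of the 6 genes. The largest gap was in *col-73*, where the brightest probe gave 2.00 in *age-1(mg44)* (limma adjusted p = 0.00451) and another probe, which also lists *col-17*, gave 0.24.

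Of 18 body-shape and other cuticle collagens measured, 4, 7 and 8 rose in *age-1(mg44)*, CY262 and CY251, and 0 fell, with medians of 1.07, 1.5 and 1.67. Over all genes 11.6%, 18.1% and 18.3% rose in these strains and 7.96%, 14.3% and 12.7% fell. *sqt-2* was the highest of them, at log2 values of 3.21, 3.67 and 3.58 (limma adjusted p = 0.00308, 0.000588 and 0.000469), and *dpy-4* followed at 2.46, 3.06 and 2.99 (0.00303, 0.000457 and 0.000379). *dpy-17*, at 2.29 in *age-1(mg44)*, did not pass (adjusted p = 0.249), and its ratios on the restored arrays ran from -1.44 to 3.38. The type IV collagens of basement membrane, *emb-9* and *let-2*, did not pass in any strain. *emb-9* and *let-2* were at -0.88 and -1.02 in *age-1(mg44)*, and between 0.80 and 1.01 in CY262 and CY251, with limma adjusted p from 0.0833 to 0.221. The type XVIII collagen *cle-1* rose in all 3 strains, by log2 values of 0.38, 0.79 and 0.93 (limma adjusted p = 0.043, 0.00153 and 0.000664).

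Enzymes that modify and fold collagen showed no common direction. Of 17 measured, 2 rose and 3 fell in *age-1(mg44)*, 4 and 2 in CY262, and 5 and 2 in CY251, with medians of 0.03, 0.17 and 0.12. The shares of all genes were 11.6% and 7.96% in *age-1(mg44)*, 18.1% and 14.3% in CY262, and 18.3% and 12.7% in CY251. *phy-2*, a prolyl 4-hydroxylase subunit that stabilises the collagen helix, rose in all 3 strains, by log2 values of 1.27, 1.23 and 1.35 (limma adjusted p = 0.0118, 0.00398 and 0.00229). *skpo-1*, a peroxidase, fell by 1.95, 1.78 and 1.59 on the log2 scale (limma adjusted p = 0.0273, 0.0125 and 0.0174). *pdi-1*, a protein disulfide isomerase, fell in *age-1(mg44)* (log2 -1.07, adjusted p = 0.0309), and *pdi-2*, the partner of the prolyl hydroxylase subunits, was at -1.44 and did not pass (adjusted p = 0.125).

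Of 16 genes needed for molting, 2, 1 and 1 rose in *age-1(mg44)*, CY262 and CY251, and 0 fell. These counts and those of this paragraph's other lists stand beside 11.6%, 18.1% and 18.3% of all genes that rose. The shares that fell were 7.96%, 14.3% and 12.7%. The molting genes that rose in *age-1(mg44)* were the NIMA-family kinase genes *nekl-2* (log2 1.02, limma adjusted p = 0.0034) and *nekl-3* (1.19, adjusted p = 0.0342). Among 33 cuticlins, non-collagen proteins of the cuticle, 5, 5 and 3 rose in *age-1(mg44)*, CY262 and CY251, and 0, 1 and 1 fell, with medians of 0.04, 0.03 and -0.02. *cut-2* was at 3.69 in *age-1(mg44)* (limma adjusted p = 0.0261) and 2.52 in CY262 (0.0306), and its arrays ran from -0.05 to 4.74. Among 15 epidermal and stage regulators 0 rose, and *lin-26*, a zinc-finger gene of epidermal fate, fell in all 3 strains, with log2 values of -0.77, -0.37 and -0.53 (limma adjusted p = 0.0148, 0.0472 and 0.0144). In *age-1(mg44)*, CY262 and CY251, 1, 1 and 2 of the 15 fell.

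Markers of other tissues also differed from wildtype on these arrays, some upward and some downward, and their part in the collagen result was not tested. All 26 major sperm protein genes measured rose in every strain, with medians of 6.48, 6.21 and 6.60. Of 12 oocyte and embryo genes 7, 8 and 7 fell in *age-1(mg44)*, CY262 and CY251, compared with 7.96%, 14.3% and 12.7% of all genes. Their medians were -1.49, -1.08 and -1.12. The 6 yolk genes did not pass in any strain, with medians from -1.32 to -0.16. Of 9 body wall muscle genes 4, 7 and 7 rose, of 10 intestine genes 4, 8 and 8, and of 12 neuron genes 1, 5 and 5. The shares of all genes that rose were 11.6%, 18.1% and 18.3%. The 9 epidermis and seam markers, which mark the tissue that makes the cuticle, had medians of 0.02, 0.00 and -0.07, with 2, 1 and 1 that rose and 1, 2 and 2 that fell. Within them the seam gene *grd-10* stood out, with log2 values of 3.04, 3.16 and 3.15 (limma adjusted p = 0.00584, 0.0015 and 0.00112). The targeted gene *age-1* was lower in all 3 strains, at log2 values of -1.35, -1.47 and -1.45, and where its probe lies relative to the mutation is not known.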

How the data were processed

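RNA of each strain (Cy3) and of N2 (Cy5) was hybridised to Agilent arrays. Per the file headers, the authors read the spots with Feature Extraction A.7.5.1. The deposited intensity values are raw mean signals, local backgrounds and dye-normalized signals of each spot. The deposited log10 values are Agilent's ratios of wildtype to strain, used here as an alternative with the sign turned. The deposited score columns mark spots that were saturated, outliers or well above background.

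Background was removed from raw signals by normexp (offset 50), and log2 ratios of strain to wildtype were loess-normalized within each array, in R 4.3.3 with limma 3.58.1. Control and outlier spots were left out. Of 21482 spots, 86.1% to 92.8% exceeded background clearly, depending on array and channel, and no probe was under the authors' minimum of 100 raw wildtype signal. For the 823 genes with several probes the brightest was used. The reference annotation named 18124 genes and served for names and neighbours only. One model (lmFit, eBayes) was fitted to all 8 arrays with a mean per strain, and its code was tested on simulated data. The number of arrays limits the precision, and p-values measure only the spread between these arrays. An "at least" fold takes a signal at the ceiling at its value after loess normalization, and is the mean over the arrays of a strain. It holds for that scale only, and other scalings can give lower values.

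Collagens named with values are the 8 with the largest rise and fall in *age-1(mg44)* past the threshold, the 6 with the largest difference each way between restored strains and *age-1(mg44)*, the 3 each way between CY262 and CY251, those past the threshold between strains, those with known stage or use, and those whose probes disagree in sign by more than 1 log2 unit. Up to 4 genes of each other list are named by size. The members and lists were chosen with earlier results of these data known. Alternatives concerned background, scaling, dim probes, outlier spots, the probe of a gene, the test, a replicate term, single arrays left out and the strain given to an array. Those without saturated collagens and without both high arrays were added after the data were seen. The files give no scan time. Feature extraction ran on 2 days, with CY262 replicate 2 alone on the other day.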

Additional observations from a re-analysis of the deposited data

Results flagged for a closer look

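*col-185* had log2 ratios of strain to wildtype above 0 on every CY262 array and below 0 on every *age-1(mg44)* array. The means were 0.06 and -0.14, a difference of 0.197. The difference of both restored strains from *age-1(mg44)* did not pass the limma threshold (adjusted p = 0.634), and its wildtype signal was well above background on 1 of 8 arrays.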

How the results depend on the processing

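With 2 or 3 arrays per strain, unswapped dyes and collagens at the scanner's ceiling, small differences and the sizes of large ones are limited. Recomputed counts of collagens past the threshold were within 1.5 times of those in the report in 147 cases and not in 7. A count of 0 on both sides was taken as within. This covers every adjusted count between strains, so those cases say little of how steady the counts are. Median log2 values moved by less than the pooled SD of the array medians (0.4928) in 141 cases and by more in 6. The cause was not tested. With raw signals divided by the array mean, which moved the median of all genes to 0.56, 0.44 and 0.48 in the 3 strains, 119 collagens passed in *age-1(mg44)* beside 14415 of all 18865 genes, and the medians were 1.08 in CY262 and 1.07 in CY251. Without background subtraction these medians were 0.87 and 0.86. Leaving out 1 array gave 18 to 71, 74 to 110 and 67 to 98 collagens in the 3 strains, with medians of 1.03 to 1.26, 1.46 to 1.72 and 1.02 to 1.81. Without both high arrays the median in CY251 was 1.02. Against wildtype, the t-test of the methods at 0.05 unadjusted called 77, 105 and 106 collagens in the 3 strains, and 52, 80 and 80 after Benjamini-Hochberg. Of all genes it called 6217, 8277 and 7749, and 2122, 5019 and 4908 after Benjamini-Hochberg. At 0.05 unadjusted it called 3 collagens for both restored strains against *age-1(mg44)*, 2 and 3 for CY262 and CY251 alone, and 1 between those strains. Of all genes it called 1440, 1288, 1099 and 291 there. After Benjamini-Hochberg it called 0 collagens between strains. Without CY262 replicate 2, the array of the other extraction day, 59, 75 and 91 collagens rose in *age-1(mg44)*, CY262 and CY251.

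Deviations of arrays with the same replicate number correlated above 0.1 in 6 of 7 pairs (up to 0.785) and at -0.162 in the other, between CY262 and CY251 replicate 2, whose strains the records dispute. Of 8 arrays, 5 correlated best with one of their own number. No source says that a number marks a shared culture or day, so the arrays were not treated as paired. With the number as a replicate block, 68, 101 and 100 collagens rose in the 3 strains against wildtype and 0 passed between strains, where 21 collagens in place of 4 had an unadjusted p under 0.05 for the restored strains against *age-1(mg44)*, beside 3214 in place of 1536 of all genes. Average linkage on correlation put 101 of 147 collagens in 1 group, and 46.8% of the pairs that share a Ward group shared such a group, compared with 51.9% of all pairs, so the 5 groups depend on the clustering.

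Of the log2 values of named collagens, 1947 kept direction and side of the threshold, 84 lost and 87 gained a pass, and 37 turned direction. Under median centring *col-59* was -0.0207 and *col-121* -0.0544 in CY251, *col-10* was -0.39, -0.081 and -0.12 and *col-144* -0.65, -0.29 and -0.30 in *age-1(mg44)*, CY262 and CY251, and *col-17* was -0.47 in *age-1(mg44)*. Under the array mean *col-17* was -0.085 in *age-1(mg44)*, *col-144* -0.28, -0.11 and -0.069 and *col-158* 0.35, 0.079 and 0.20 in the 3 strains. *col-121* in CY251 was -0.0323 without background subtraction, -0.0483 by Agilent's ratio, -2e-04 with outlier spots kept and -0.0294 without both high arrays. With single arrays left out, log2 values against wildtype ran from -0.55 to 2.22 for *col-169* and -0.88 to 0.16 for *col-158* in *age-1(mg44)*, from -0.18 to 0.21 for *col-121* in CY251 and from -0.0162 to 0.13 for *col-99* in CY262. Differences of the restored strains from *age-1(mg44)* ran from -0.0499 to 2.71 for *col-169*, -2.83 to 0.097 for *col-59* and -1.25 to 0.0073 for *col-142*. Those of CY262 from CY251 ran from -0.0549 to 1.47 for *col-65* and -1.32 to 0.26 for *col-9*. By the value table *col-121* in CY262 was -0.25, and CY262 minus CY251 was -1.12 for *col-74*, -1.39 for *col-59*, 1.58 for *col-9* and 0.19 for *col-158*. By file names it was -0.49 for *col-59* and 1.60 for *col-9*.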
